A study of Mus musculus with 6 samples.

Results

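The creatine kinase system and myoglobin were described in hearts of mouse embryos at stage E12.5 (mid-gestation). They are 8 genes of the 19933 that the array's annotation names: the creatine kinase genes Ckm, Ckb, Ckmt1 and Ckmt2, the creatine synthesis genes Gatm and Gamt, the creatine transporter gene Slc6a8 and the myoglobin gene Mb. They were chosen by their annotated symbol, and each was read by 1 transcript cluster, the array's unit for a gene, so no choice between clusters was needed. The groups were 3 wild-type hearts (labelled heart_WT) and 3 hearts labelled as β1 integrin knockout (heart_KO), each hybridised to 1 Affymetrix Mouse Gene 1.0 ST array. The labels give neither the strain, nor how and in which cells β1 integrin was deleted, nor how many hearts went into a sample. Heart below means 1 sample, and 3 values of a group are always given for replicates 1, 2 and 3 in that order. The stated purpose was to look for early transcript differences before the mutant heart visibly failed.

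Creatine kinases pass a phosphate group between ATP and creatine. The mitochondrial enzymes load creatine where ATP is made, and the cytosolic enzymes return the phosphate to ADP at the myofibrils and ion pumps that use ATP. In heart development the brain-type cytosolic subunit is known as the early isoform, while the muscle-type subunit and the sarcomeric mitochondrial enzyme accumulate as cardiomyocytes mature. Creatine itself is made from arginine and glycine, mainly outside muscle, and enters muscle cells through a transporter. Myoglobin binds oxygen in the cytoplasm of cardiac and skeletal muscle.

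The sequences before the start sites of Ckm, Ckb and Ckmt2 are shown because the first pair are the muscle-type and brain-type isoforms compared here, and the last is the member whose groups did not overlap. Each is the 250 bases that end just before the annotated start, read 5′ to 3′ on the gene's strand, from RefSeq for GRCm38.p6. The windows lie at chr7:19410844-19411093 (plus strand), chr12:111672339-111672588 (minus strand) and chr13:91876886-91877135 (minus strand). Capitals mark matches, on either strand, to any of 7 motifs.
Ckm: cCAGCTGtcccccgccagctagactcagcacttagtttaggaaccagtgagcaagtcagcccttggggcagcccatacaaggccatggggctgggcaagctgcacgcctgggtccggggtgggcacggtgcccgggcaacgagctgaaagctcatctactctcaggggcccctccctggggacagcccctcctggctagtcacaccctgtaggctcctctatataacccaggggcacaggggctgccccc
Ckb: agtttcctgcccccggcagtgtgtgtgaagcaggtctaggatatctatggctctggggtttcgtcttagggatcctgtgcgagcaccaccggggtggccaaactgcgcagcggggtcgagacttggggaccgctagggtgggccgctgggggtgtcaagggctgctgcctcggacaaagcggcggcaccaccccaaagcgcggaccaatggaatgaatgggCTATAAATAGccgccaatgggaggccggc
Ckmt2: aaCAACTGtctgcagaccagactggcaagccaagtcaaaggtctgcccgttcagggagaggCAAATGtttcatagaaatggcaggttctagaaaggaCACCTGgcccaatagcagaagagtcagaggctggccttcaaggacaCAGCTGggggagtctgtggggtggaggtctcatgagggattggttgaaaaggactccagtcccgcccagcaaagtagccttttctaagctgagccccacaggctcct

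The motifs were CANNTG (the E-box bound by basic helix-loop-helix factors), the MEF2 consensus, the CArG box bound by serum response factor, TATAAA as the TATA box, AAGGTCA as the estrogen-related receptor core, ACGTG as the hypoxia response core and AGATAA as a GATA site. The Ckmt2 window held 4 E-boxes, at -248, -189, -153 and -107 from the start, and the Ckm window held 1, at -249. The Ckb window held none, and 66.2% of all 32851 promoter windows of this length held at least 1. The share of windows with any larger number of E-boxes was not counted, so the number in a window has no background here. The Ckb window held 1 match to the MEF2 consensus, first base at -29, which overlaps a TATAAA at -28. The MEF2 consensus occurred in 2.92% and TATAAA in 12.4% of all windows. 7 of the 8 members had an entry. The windows of Ckmt1 and Gamt held no E-box, that of Gatm held 1, and the 3 annotated starts of Mb held 2, 2 and 3. Mb windows 2 and 3 overlap and share E-boxes, so these are not all separate sites. A match describes letters only.

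Deposited values are RMA signals on a log2 scale, so a difference of 1 is a doubling of the signal. The array medians lay between 6.65 and 6.71, and with 3 arrays a group their number limits the precision. The targeted gene Itgb1 read 11.76, 11.80 and 11.78 in the wild-type hearts and 11.53, 11.42 and 11.65 in the knockout hearts, a difference of -0.25 ± 0.09 (SE; limma, adjusted p = 0.797). Where its probes lie relative to the deletion is not given, so this does not settle the labels. All 15 cardiomyocyte markers of the list used here lay above the median level of all clusters, against 1 of 10 skeletal muscle and 0 of 8 neural and neural crest markers. In RNA of whole hearts, fewer cells of a type and less RNA per cell cannot be told apart.

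All 8 members had a lower mean signal in the knockout hearts, by 0.00 to 0.33 (log2), and none passed limma's test. Over all 28767 clusters 0% were called at an adjusted p of 0.05 and the smallest adjusted p was 0.601. A lower mean alone was common, at 53.5% of all clusters. The median difference of the members was -0.14, beside -0.01 over all clusters. Only Ckmt2 had every knockout heart below every wild-type heart, 1 of 8 members, beside 6.61% of all clusters. At an unadjusted p under 0.05 Ckmt2 was also the only member, beside 2.87% of clusters that were lower at that level and 5.93% in either direction. The count of lower means rested in part on wild-type replicate 1: without it 5 of the 8 members were lower. That heart was the highest of all 6 for 6 members, while knockout replicate 3 was the lowest of all 6 for 5. Knockout replicate 3 also had the highest marker mean of all 6 hearts for epicardium and fibroblasts (9.97), smooth muscle and pericytes (9.25), neural cells (6.16), skeletal muscle (6.30) and liver and gut (6.36). The last rank rested on the liver genes Alb and Afp. Without both, that heart read 6.12, below 6.21 in knockout replicate 2 and 6.18 in wild-type replicate 3. The part of these cell types in the member values was not tested. Without knockout replicate 3, 6 of the 8 members were lower, as many as without knockout replicate 1.

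**Figure D1:**
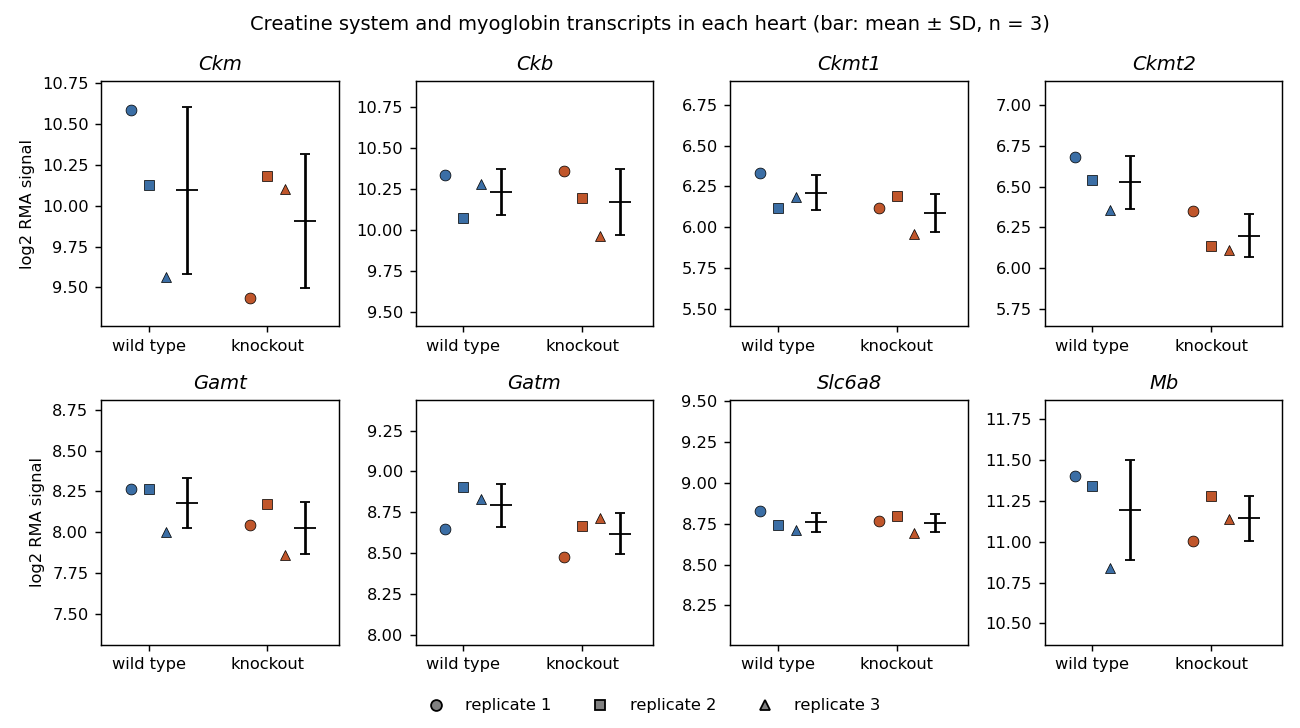
Log2 RMA signal (vertical axis, each panel spanning 1.5 units) of the 8 members in the 3 wild-type and 3 knockout hearts, with replicate numbers as symbols and the mean ± SD of each group beside them. Ckmt2 is the panel in which the groups do not overlap, Ckm has the widest scatter (9.44 to 10.59) and Slc6a8 the narrowest.

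Ckm encodes the muscle-type cytosolic subunit (transcript cluster 10550698). Its signal was 10.59, 10.13 and 9.56 in wild-type replicates 1 to 3 and 9.44, 10.18 and 10.10 in knockout replicates 1 to 3. The groups overlapped almost fully, with the highest heart a wild-type one and the lowest knockout replicate 1. The wild-type mean was 10.09 ± 0.51 (SD, n = 3) and the knockout mean 9.91 ± 0.41 (SD, n = 3). The difference was -0.19 ± 0.28 (log2, SE; limma, adjusted p = 0.908), or 87.8% of the wild-type signal with a 95% interval of 55.5% to 139%. Without wild-type replicate 1 it was 0.06 and without knockout replicate 1 it was 0.05, so its sign depended on single hearts. Without wild-type replicate 3 it was -0.45. Knockout replicate 1 had the lowest cardiomyocyte marker mean of all 6 hearts, 12.45. It was also the heart with the highest erythroid marker mean, 10.28 against 8.73 to 9.22 in the other hearts. The lowest erythroid mean, 8.73, was that of wild-type replicate 3, where Ckm was low too. All 8 measured erythroid markers had higher knockout means and none separated the groups. Without knockout replicate 1 the direction turned, with 6 of 8 lower and a list mean of 8.91 against 9.04 in wild type. The part of either cell type in the Ckm values was not tested.

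Ckb encodes the brain-type cytosolic subunit (cluster 10402708). It read 10.34, 10.07 and 10.28 in the wild-type hearts and 10.36, 10.20 and 9.96 in the knockout hearts. Knockout hearts were both the highest and the lowest. The difference was -0.06 ± 0.13 (log2, SE; limma, adjusted p = 0.936), with an interval of 78.3% to 118% of the wild-type signal, and it was 0.05 without knockout replicate 3. Ckb varied far less than Ckm, over a range of 0.40 against 1.15 across the 6 hearts.

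The muscle-type and brain-type isoforms were then compared within each heart, where shifts of a whole array cancel. The difference Ckm minus Ckb in log2 signal read 0.25, 0.06 and -0.72 in the wild-type hearts and -0.93, -0.01 and 0.14 in the knockout hearts. Its zero has no meaning, since the probes of different genes are not equally bright. That brightness cancels in the change between hearts, so only the change can be read. It averaged -0.14 ± 0.51 (SD, n = 3) over the wild-type and -0.27 ± 0.58 (SD, n = 3) over the knockout hearts. The change of -0.13 ± 0.44 (SE) was smaller than the spread in either group (two-sided exact permutation p = 0.6). 2 such balances were tested, and the adjusted exact p was also 0.6, where 0.1 is the smallest p that 3 against 3 allows. Without wild-type replicate 1 the change was 0.07 and without knockout replicate 1 it was 0.20. Wild-type replicate 3 and knockout replicate 1, 1 heart of each group, had the lowest Ckm relative to Ckb.

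**Figure D2:**
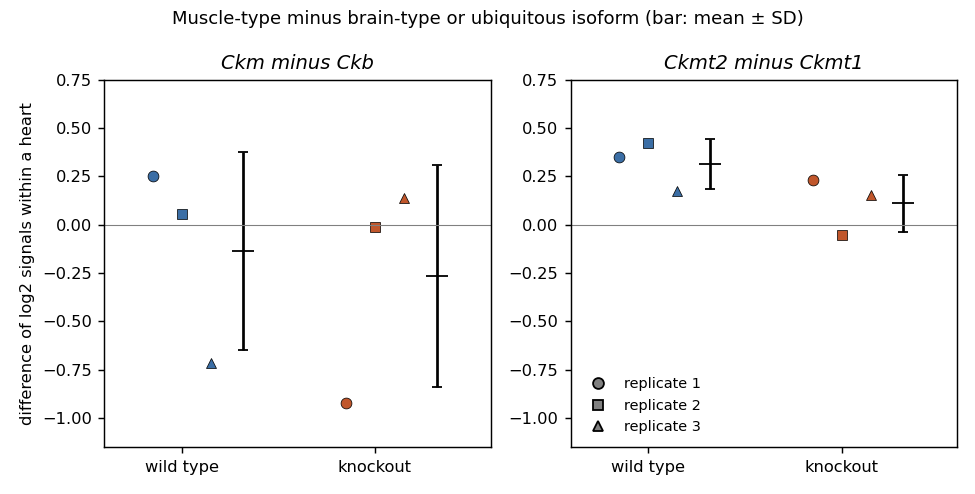
Within-heart difference of log2 signals (vertical axis) for the cytosolic pair Ckm minus Ckb and the mitochondrial pair Ckmt2 minus Ckmt1, with 3 wild-type and 3 knockout hearts as points and the mean ± SD of each group. In the cytosolic pair 1 heart of each group lies far below the others, at -0.72 and -0.93.

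Ckmt2 encodes the sarcomeric mitochondrial creatine kinase (cluster 10410984). Its signal read 6.68, 6.54 and 6.36 in the wild-type hearts and 6.35, 6.14 and 6.11 in the knockout hearts. Every knockout heart lay below every wild-type heart, though wild-type replicate 3, at 6.357, and knockout replicate 1, at 6.349, nearly touched. The means were 6.53 ± 0.16 (SD, n = 3) and 6.20 ± 0.13 (SD, n = 3). The difference of -0.33 ± 0.11 (log2, SE) left 79.6% of the wild-type signal, with an interval of 66.2% to 95.9%. It did not pass over all clusters (limma, unadjusted p = 0.0224 and adjusted p = 0.797), and a two-sided exact permutation test gave p = 0.1. Leaving out each heart in turn gave differences from -0.41 to -0.25. With arrays weighted by their quality the difference was -0.40 and limma's adjusted p 0.247, and over all alternatives run the adjusted p lay between 0.247 and 0.994. The Ckmt2 level lay at the 45.6th percentile of all clusters, and its signal over background is not known.

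Marker lists of the cell types that a heart sample could hold were read beside these values. The mean of 15 cardiomyocyte markers was 12.54 to 12.59 in wild-type and 12.45 to 12.55 in knockout hearts, so these means overlapped. Of the 15 markers 11 were lower and 4 higher. Over all clusters 53.5% were lower and 46.5% higher, which is the background for each list below too. Singly, 3 lay wholly below and 1 wholly above wild type, beside 6.61% and 6.01% of all clusters. The mean of 10 endothelial and endocardial markers was 9.78 to 9.86 in wild-type and 9.73 to 9.75 in knockout hearts, without overlap and with 7 members lower. The mean of 10 liver and gut markers, 2 of them above the median level of all clusters, was 5.78 to 6.0045 in wild-type and 6.06 to 6.36 in knockout hearts, also without overlap and with 7 members higher. That separation rested on Alb and Afp, which encode the fetal serum proteins albumin and alpha-fetoprotein and differed by 1.57 and 1.20. Without both the means read 5.97 to 6.18 and 6.07 to 6.21, which overlap. Of 10 markers each, 8 were higher for epicardium and fibroblasts (9.16 to 9.62 in wild-type, 9.27 to 9.97 in knockout hearts), 7 for smooth muscle and pericytes (8.71 to 8.94 and 8.87 to 9.25), 9 for macrophages and leukocytes (7.01 to 7.20 and 7.08 to 7.27) and 7 for skeletal muscle (5.91 to 5.996 and 5.90 to 6.30). The macrophage and leukocyte marker that was lower, Lyz2, had the lowest p of its list. It differed by -0.40 ± 0.17 (log2, SE; limma, unadjusted p = 0.0466 and adjusted p = 0.797). All 8 measured neural and neural crest markers were higher (5.88 to 6.03 and 5.98 to 6.16). Without knockout replicate 1, 6 of these 8 were higher and 2 lower. None of these markers passed limma's test, no value of the table was 0, and the part of cell makeup in the member values was not tested.

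Ckmt1 encodes the ubiquitous mitochondrial enzyme, found in brain and many epithelia (cluster 10475324). It read 6.33, 6.12 and 6.18 in the wild-type hearts and 6.12, 6.19 and 5.96 in the knockout hearts, with overlapping groups. The difference was -0.12 ± 0.10 (log2, SE; limma, adjusted p = 0.832), with an interval of 78.2% to 108% of the wild-type signal. The balance Ckmt2 minus Ckmt1 read 0.35, 0.42 and 0.17 in the wild-type hearts and 0.23, -0.05 and 0.15 in the knockout hearts. Knockout replicate 1 lay above wild-type replicate 3, so the groups overlapped. Ckmt1 lay at the 42.0th percentile of all clusters. Whether its probes read above background is not known, which limits this balance. The change was -0.21 ± 0.11 (SE; two-sided exact permutation p = 0.2, adjusted over the 2 balances 0.4), and -0.28 to -0.12 with each heart left out in turn.

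Gatm and Gamt encode the enzymes of creatine synthesis. Gatm, the amidinotransferase of the first step (cluster 10487011), read 8.65, 8.90 and 8.83 in the wild-type hearts and 8.48, 8.67 and 8.72 in the knockout hearts. Wild-type replicate 1 lay below knockout replicates 2 and 3, and the other wild-type hearts above all knockout hearts. The difference was -0.17 ± 0.11 (log2, SE; limma, adjusted p = 0.797), with an interval of 74.7% to 105% of the wild-type signal. Gamt, the methyltransferase of the last step (cluster 10370766), read 8.27, 8.26 and 8.001 in the wild-type hearts and 8.05, 8.17 and 7.86 in the knockout hearts. Here knockout replicates 1 and 2 lay between the wild-type hearts. Its difference was -0.15 ± 0.12 (SE; limma, adjusted p = 0.827), with an interval of 74.3% to 109%. Both kept a lower knockout mean when any 1 heart was left out, from -0.25 to -0.10 for Gatm and from -0.24 to -0.07 for Gamt.

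Slc6a8, the creatine transporter (cluster 10600210), was the steadiest member. Its signal read 8.82, 8.74 and 8.71 in the wild-type hearts and 8.77, 8.80 and 8.70 in the knockout hearts. The groups were interleaved, and the range over 6 hearts was 0.13, against a median of 0.39 for all clusters. The knockout signal was 99.7% of wild type, with an interval of 87.4% to 114% (limma, adjusted p = 0.992). The sign of this near-zero difference turned in 5 alternatives, with values between -0.03 and 0.03.

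Mb, myoglobin (cluster 10430140), read 11.40, 11.34 and 10.84 in the wild-type hearts and 11.01, 11.28 and 11.14 in the knockout hearts. All knockout hearts lay between the lowest and the highest wild-type heart. The difference was -0.05 ± 0.16 (log2, SE; limma, adjusted p = 0.954), with an interval of 74.6% to 125% of the wild-type signal. Leaving out wild-type replicate 1 turned it to 0.05, while leaving out wild-type replicate 2 or knockout replicate 1 turned it to 0.02. Leaving out wild-type replicate 3, the lowest heart, gave -0.23. Wild-type replicate 3 was also the lowest of its group for Ckm, Ckmt2, Gamt and Slc6a8.

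**Figure D3:**
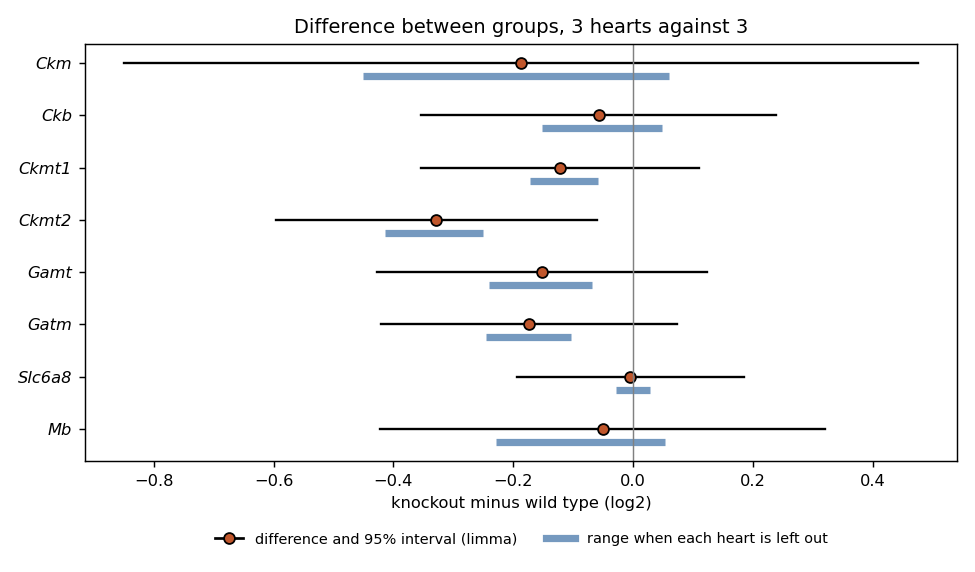
Knockout minus wild-type difference in log2 signal (horizontal axis) of each member, with the 95% interval from limma as a black line and the range obtained by leaving out each of the 6 hearts in turn as a blue bar. The interval of Ckmt2 (-0.60 to -0.06, unadjusted) lies below 0, and the blue bars of Ckm, Ckb, Slc6a8 and Mb cross 0.

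Genes that work beside creatine kinase in moving high-energy phosphate were read next, none of which passed limma's test. A higher knockout mean occurred in 46.5% of all clusters. Of 13 measured shuttle genes (ATP and phosphate carriers, porins, adenylate and nucleoside diphosphate kinases and a second creatine transporter) 11 were lower and 2 higher, 4 wholly below and 0 wholly above wild type, beside 6.61% and 6.01% of all clusters. Their median difference was -0.10. Slc16a12, a plasma membrane transporter that also carries creatine, read 8.70, 8.55 and 8.49 in the wild-type hearts and 8.11, 8.13 and 8.20 in the knockout hearts. All knockout hearts lay below all wild-type hearts, with a difference of -0.44 ± 0.09 (log2, SE; limma, unadjusted p = 0.0014 and adjusted p = 0.797). It thus differed more than Slc6a8 by value, which was not tested. The adenylate kinase gene Ak1 differed by -0.26 ± 0.12, the nucleoside diphosphate kinase gene Nme2 by -0.22 ± 0.10 and the mitochondrial adenylate kinase family gene Ak4 by 0.37 ± 0.19. Ak4 stood at 8.90 in knockout replicate 1 and at 8.16 and 8.28 in the other knockout hearts. Without that heart Ak4 differed by 0.14 and Ak1 by -0.14.

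Genes that make, carry or use arginine and methyl groups had 5 of 8 measured members higher and 3 lower, with a median difference of 0.02 and none without overlap. The arginine transporter gene Slc7a1 differed by 0.27 ± 0.13 (log2, SE), the arginase genes Arg1 by 0.28 ± 0.20 and Arg2 by 0.12 ± 0.15, and the glycine methyltransferase gene Gnmt by -0.06 ± 0.15. Arg1, Arg2 and Gnmt were dim, at level percentiles of 28.2 to 32.1 among all clusters. Without knockout replicate 1 Arg1 differed by 0.03, Slc7a1 by 0.16 and Gnmt by -0.17, and 4 of the 8 were higher. Of 12 genes of energy sensing through AMP-activated kinase and AMP deaminase 8 were lower and 4 higher, 2 of them wholly below wild type (6.61% of all clusters were), with a median of -0.04. Prkag3, a regulatory subunit known from skeletal muscle, read 7.97, 7.89 and 7.68 in the wild-type hearts and 7.24, 7.52 and 7.43 in the knockout hearts, a difference of -0.45 ± 0.11 (limma, adjusted p = 0.797). Prkab2, a scaffold subunit of the kinase, differed by 0.28 ± 0.21, with 9.57 in knockout replicate 1 and 8.75 and 8.80 in the other knockout hearts, and by 0.02 without that heart. The AMP deaminase genes Ampd2 and Ampd1 differed by -0.10 ± 0.08 and 0.14 ± 0.14, the latter by 0.07 without knockout replicate 1. Ampd1 was dim too, at a level percentile of 25.9. Without that heart 6 of the 12 genes were lower and 6 higher.

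Among 8 other globin and oxygen response genes 6 were higher and 2 lower, 3 of them wholly above wild type, where 6.01% of all clusters were. The prolyl hydroxylase gene Egln3 differed by 1.32 ± 0.46 (log2, SE), Egln1 by 0.42 ± 0.18, the angiogenic factor gene Vegfa by 0.58 ± 0.34 and the neuroglobin gene Ngb, dim at 5.80 to 6.03, by 0.14 ± 0.08. Knockout replicate 1, the lowest heart for Ckm, was the highest for Egln3 (9.86), Egln1 (10.59) and Vegfa (11.21). Without it these differed by 0.71, 0.19 and 0.13. The part of this in the Ckm value was not tested. Of 17 transcription factor and coactivator genes known to act in muscle 11 were higher and 6 lower, 2 wholly above and 1 wholly below wild type (6.01% and 6.61% of all clusters), with a median of 0.04. Esrra, which encodes an estrogen-related receptor of mitochondrial genes, differed by -0.24 ± 0.10, Mef2c by 0.17 ± 0.08, Gata6 by 0.22 ± 0.11 and the coactivator gene Ppargc1a by 0.17 ± 0.14. Esrra was below and Mef2c above wild type in all 3 knockout hearts. Without knockout replicate 1 Ppargc1a differed by 0.02, and 8 of the 17 were higher and 9 lower.

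**Figure D4:**
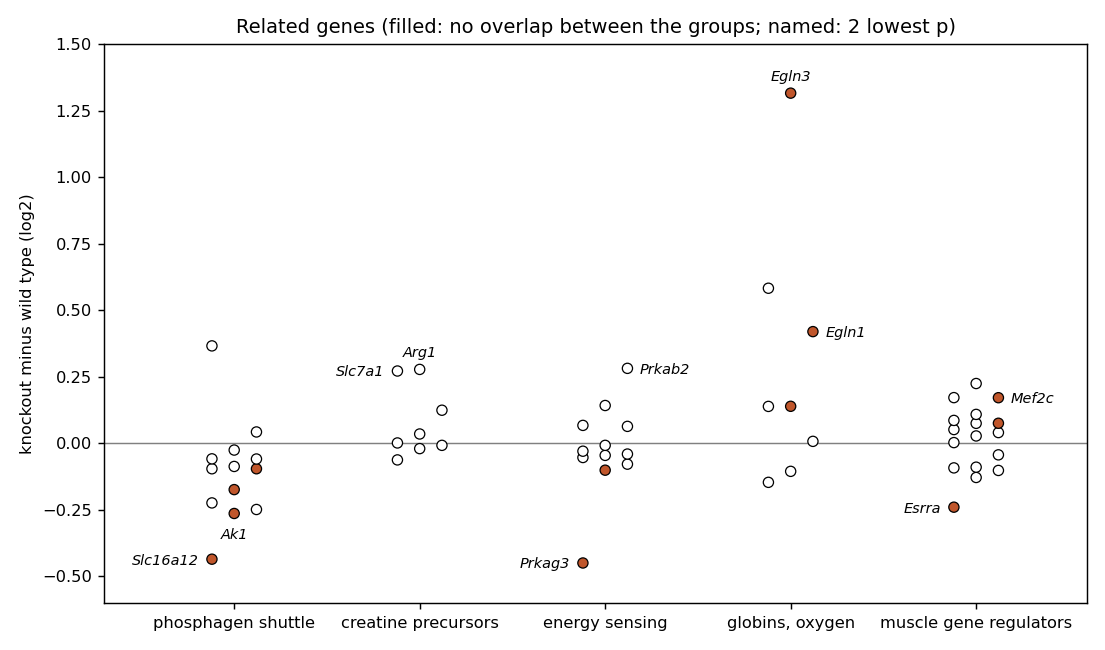
Knockout minus wild-type difference in log2 signal (vertical axis) of the measured genes of 5 related lists, 1 point per gene, filled where the groups of 3 hearts did not overlap and named for the 2 lowest p of each list. Egln3 lies highest at 1.32, and Slc16a12 (-0.44) and Prkag3 (-0.45) lie lowest.

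The genes whose levels varied most like those of a member were named for the 3 members with the widest range over the 6 hearts. Likeness is the root mean square distance, in log2 units over 6 hearts, between profiles centred on their own means. Nearest to Ckm was Nrap, at a distance of 0.15, which encodes a protein of forming myofibrils and intercalated discs. Nrap read 10.06, 9.81 and 9.45 in the wild-type hearts and 9.22, 9.72 and 9.65 in the knockout hearts. Mtrr (0.15), Snapc5 (0.15) and the olfactory receptor gene Olfr952 (0.16), near the bottom of the signal range, came next. Nrap, Mtrr and Snapc5 were highest in wild-type replicate 1 and lowest in knockout replicate 1, as was Ckm. This follows from choosing near profiles. Nearest to Ckmt2 were Lyz1 (0.04), Hebp2 (0.05), Mup21 (0.05) and Cntnap5b (0.06). Nearest to Mb were the mitochondrial ribosomal protein gene Mrpl20 (0.04), Lpxn (0.05), Frrs1 (0.05) and Tspan12 (0.05). With 6 hearts and 19933 genes, near profiles occur at every level of signal, and they are given as a description.

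**Figure D5:**
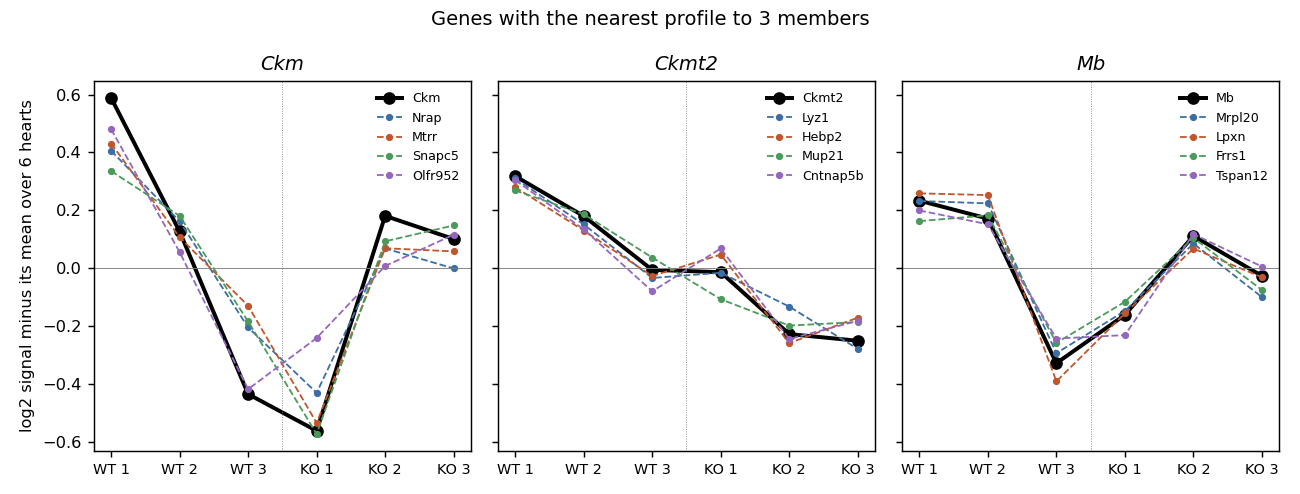
Log2 signal minus the gene's own mean over the 6 hearts (vertical axis) for Ckm, Ckmt2 and Mb (black) and the 4 nearest genes of each (dashed), by heart. The lines only guide the eye, since hearts have no order. The Ckm panel shows low values of wild-type replicate 3 and knockout replicate 1, shared by the 4 nearest genes, which were chosen for their likeness.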

How the data were processed

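RNA of 3 wild-type and 3 knockout hearts was read on Affymetrix Mouse Gene 1.0 ST arrays. The authors' deposited log2 values (the scale is judged from their range) come from RMA, per the submitters' processing notes. Neither RMA's version nor the probe annotation or build is stated in the labels. Of 28767 clusters, 21776 had 1 symbol in the platform annotation, and 21686 of these were updated through a mouse gene table (GRCm38.p6) by Entrez identifier.

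All clusters were fitted with limma 3.58.1 (R 4.3.3; lmFit and eBayes, no filter, no covariate), with Benjamini-Hochberg adjustment across the whole table and a threshold of 0.05. Intervals are 95% and unadjusted. Isoform balances were tested by exact permutation of the hearts. The fit was tested on simulated data. Alternatives tried were leaving out clusters at or below the median level, fitting 1 cluster per gene, 3 other normalizations, a trended robust variance, array weights, the replicate number as a block, and each heart left out. The samples are called biological replicates without further detail, so p-values reflect the spread between samples as deposited.

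The members and gene lists were chosen with earlier results of these data known. Named genes are all members, Itgb1, the 4 lowest p of each related list and the 4 nearest profiles of 3 members. Alb, Afp, Lyz2, Myh7 and Myl7 were named after their values were seen, and the values of gene lists without knockout replicate 1 or without Alb and Afp were added then. The labels do not say that a replicate number is a shared litter or day, so the numbers were not taken as pairs. By value, same-numbered hearts did not deviate together (r of deviations -0.04, -0.03 and -0.06, beside -0.03 to 0.08 for differently numbered hearts). No 2 arrays held the same values, with r between 0.987 and 0.996 over all clusters.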

Additional observations from a re-analysis of the deposited data

How the results depend on the processing

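No member passed an adjusted p of 0.05 in any of the 14 alternative fits, except that Ckmt1 and Ckmt2 could not be tested under the filter on dim clusters, which removes them. Ckmt2, Ckmt1, Gatm, Gamt and the balance Ckmt2 minus Ckmt1 had a lower knockout value in every alternative that tested them. Slc6a8 turned to 0.0136 with quantile normalization again, 0.0265 with cyclic loess and 0.0193 with array weights. Leaving out each heart in turn gave -0.45 to 0.0607 for Ckm, -0.15 to 0.0483 for Ckb, -0.0292 to 0.0288 for Slc6a8, -0.23 to 0.053 for Mb and -0.42 to 0.20 for Ckm minus Ckb. It left 5 to 8 members lower and 0 to 1 clusters called, the 1 without knockout replicate 1. The causes were not tested. With a replicate block 0 clusters were called, and the Ckmt2 difference was -0.33 with limma's adjusted p at 0.839. The block changed no call. Averaging all clusters of a gene changed nothing, as each member has 1. Signal over background was not available for single probes, and the intervals leave differences of moderate size in both directions possible for Ckm and Mb.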

Other observations

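The scatter of Ckm within the wild-type group was wide. Its wild-type SD of 0.51 (log2, n = 3) was reached by 200 of 28767 clusters, or 0.695%, and its highest and lowest wild-type hearts differed 2.03-fold. Over all 6 hearts the range of Ckm was 1.15. The ranges of the 15 cardiomyocyte markers lay between 0.08 (Myh7) and 0.56 (Myl7), with a median of 0.21, and 0 of 15 reached that of Ckm. All 15 markers had a higher mean signal than Ckm, and bright probes can saturate, which narrows a range and was not tested. Mb was next among the members in wild-type spread, with an SD of 0.31. Both were low in wild-type replicate 3, whose cardiomyocyte marker mean was 12.54 against 12.57 and 12.59 in the other wild-type hearts. Within that group this heart also had the highest epicardial and fibroblast marker mean, 9.62, and the lowest erythroid one, 8.73. The part of cell makeup in its Ckm and Mb values was not tested.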
